A study of Mus musculus with 6 samples.

Results

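The 44 genes described here encode postsynaptic scaffolds and the synaptic adhesion proteins that scaffolds hold in the membrane. They were listed by name for their known function, with earlier results of these data known, and they are 44 of the 32531 gene symbols counted in the study. All 44 passed the filter on low counts and were tested. The animals were adult mice of a transgenic line, Htr4-EGFP/Rpl10a (ES1299), and their cerebral cortex was dissected without any treatment. Rpl10a is a protein of the large ribosomal subunit, and its EGFP tag lets ribosomes be captured with antibodies against EGFP, together with the mRNA they carry (translating ribosome affinity purification, TRAP). RNA from the captured ribosomes (IP, 3 libraries) was compared with input RNA (3 libraries); both groups come from the same untreated line, so every animal carried the tag. Any cell in which the Htr4 transgene is active can contribute to the IP, and the labels give neither the cells that carry the tag, nor the number of animals, nor whether animals were pooled.

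At an excitatory synapse, membrane-associated guanylate kinases such as PSD-95 bind receptors and adhesion molecules through PDZ domains. SAPAP adaptors link them to Shank proteins, and Shank proteins link on to Homer and the actin of the spine. Adhesion proteins such as neuroligins reach across the cleft to presynaptic neurexins, and gephyrin does the scaffolding work at inhibitory synapses. Some of these mRNAs, among them those of the Shanks and of neurogranin, are known to travel into dendrites.

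Values below are CPM, the reads of a gene after each library is scaled to the same total of gene reads, with library sizes scaled by the trimmed mean of M-values (TMM). Fold changes are log2 of IP over input with their standard error (SE). A gene is called higher or lower where the adjusted p of edgeR's quasi-likelihood test (two-sided, Benjamini-Hochberg over all tested genes) was under 0.05. Reads on genes numbered 37696125 to 52360452 in input and 53147173 to 67559533 in IP, so that 3 reads amount to 0.0444 to 0.0796 CPM. Together the 44 genes took up 1.13% ± 0.0379 of the reads on genes in the input libraries and 1.18% ± 0.0432 in the IP libraries (SD, n = 3 each), and these ranges overlapped.

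Neuronal markers were more abundant in IP and glial markers much less so. The summed level of 6 neuronal markers was 19422 to 22592 CPM in input and 28181 to 30197 CPM in IP, and 5 of the 6 were called higher. Snap25 made up most of this sum, at 17374 ± 1524 CPM in input and 24267 ± 895 in IP. Of 6 markers of excitatory pyramidal neurons 2 were called higher (1357 to 1534 CPM in input, 1527 to 2001 in IP), and of 8 interneuron markers 4 were (977 to 1100 in input, 1186 to 1728 in IP). All 8 astrocyte markers were called lower (3898 to 4493 CPM in input, 830 to 1036 in IP, most of it Slc1a2). The same held for all 8 oligodendrocyte markers (1377 to 1516 CPM, then 161 to 183), all 6 precursor markers (99.3 to 107, then 6.01 to 9.46) and all 8 microglial markers (52.3 to 61.5, then 3.83 to 7.63). Of 8 endothelial and mural markers 5 were called lower (22.0 to 35.0 CPM, then 11.7 to 16.5), and Tek was at 0 in every IP library. The part of these differences in the results below was not tested. In such bulk samples, less RNA from a cell type and a lower level within its cells cannot be told apart.

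IP replicate 2 stood apart from the other IP libraries. The summed level of 6 markers of hippocampal cells, listed after results had been seen, was 31.6 to 54.5 CPM in input and 89.8, 244 and 76.8 CPM in IP replicates 1 to 3. Most of each sum was Prox1, at 29.5 to 49.7 CPM in input and 78.1, 192 and 69.3 CPM in IP. Prox1, C1ql2 and Tdo2 were called higher in IP, while Dsp, Lct and Iyd were not called. Which cells, hippocampal or other, gave the higher Prox1 level and the higher sum in IP was not tested. Tanc1, Homer3, Ddn and Nrgn were among the genes that were highest in IP replicate 2, and the part of hippocampal cells in their values was not tested. Without IP replicate 2, Tanc1 had a fold change of 0.40 in place of 0.85 on the log2 scale, Nrgn 0.62 in place of 0.74, Ddn -0.13 in place of 0.13 and Homer3 -1.31 in place of 0.41, and of these only Nrgn was then called (adjusted p = 0.00027).

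The module split between both directions. IP was higher than input for 9 of the 44 genes and lower for 11, while 24 did not pass the test. That is 45.5% called, against a background of 44.8% of all 16506 tested genes (21.3% higher and 23.4% lower). The median log2 fold change was 0.01 over the 44 genes and -0.02 over all tested genes. None of the 44 reached a 2-fold change, although 19.8% of all tested genes were called with at least that change. The called genes differed by 1.22- to 1.80-fold where higher and by 1.18- to 1.80-fold where lower. The 3 IP libraries lay entirely above the 3 inputs for 8 genes and entirely below them for 12, and beside these 20 of 44 the background is 56.1% of all tested genes (26.5% above and 29.5% below). Without IP replicate 2, 7 genes (15.9%) were called higher and 8 (18.2%) lower, beside 19.9% and 23.7% of all genes in that fit. Without input replicate 2, 6 (13.6%) were called higher and 5 (11.4%) lower, beside 15.8% and 18.7%. Without input replicate 3 the lower calls numbered 5 (11.4%), beside 18.3%.

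**Figure D1:**
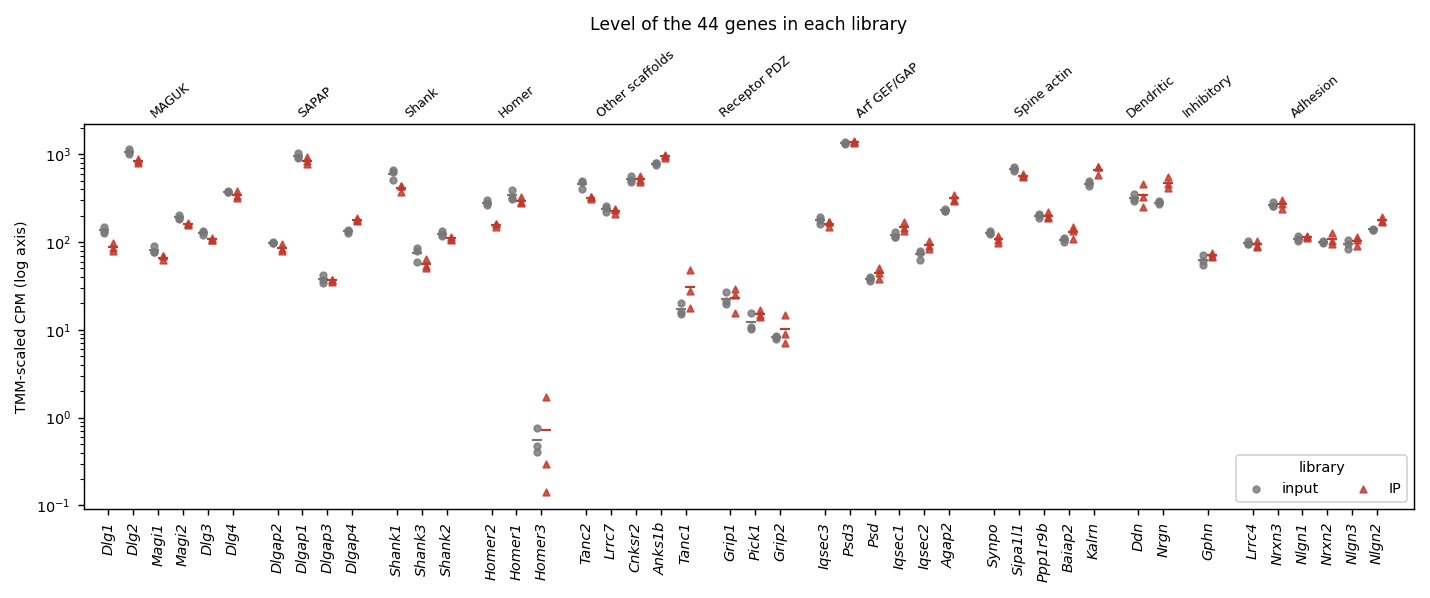
Level of each of the 44 genes in every library, in CPM on a log axis, with genes grouped by role, inputs and IPs in separate colours and each point 1 library. Most genes sit above 10 CPM, Homer3 is under 2 CPM in all 6 libraries, and the groups lie close together for most genes.

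Per kilobase of annotated exon, Nrgn was the most abundant of the 44 in input at 194 ± 8.44 CPM per kb. Ddn followed at 84.0 ± 8.03 and Psd3 at 75.5 ± 1.89 CPM per kb, a gap within their spread. Dlg2 (65.9 ± 4.30), Shank1 (57.2 ± 7.59), Cnksr2 (56.2 ± 4.04) and Anks1b (53.9 ± 1.77 CPM per kb) came next, and neighbours from Dlg2 to Anks1b did not differ beyond their SDs. The steps from Nrgn to Ddn and from Psd3 to Dlg2 were larger than the SDs. The order depends on the length used. Divided by its principal transcript of 1739 nucleotides, Psd3 stood at 766 CPM per kb, the highest of all, with Nrgn at rank 2. By that measure Ddn had rank 10 in place of 2 and Shank1 rank 12 in place of 5, while Homer2 had rank 5 in place of 18. The lowest were Homer3 at 0.160, Grip2 at 0.881 and Tanc1 at 1.18 CPM per kb.

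Of the 6 membrane-associated guanylate kinase scaffolds, 5 were called lower in IP, none higher, beside 23.4% of all tested genes called lower, and their median log2 fold change was -0.27. With an offset for transcript length (given with the other length results below), only Dlg1 of the 5 kept its call. Dlg1, which encodes SAP97, a scaffold involved in the trafficking of AMPA receptors, stood at 128, 133 and 149 CPM in input replicates 1 to 3 and at 86.7, 79.6 and 97.0 CPM in IP replicates 1 to 3. The groups did not overlap, and Dlg1 (GRCm38 chromosome 16, 31663443 to 31875129, plus strand) fell by 0.64 on the log2 scale (SE 0.10, adjusted p = 0.00046). Dlg2, which encodes PSD-93, stood at 1009.7, 1060.2 and 1148 CPM in input and at 884, 802 and 831 CPM in IP. All 3 IP libraries were below all inputs, and the log2 fold change was -0.35 (SE 0.08, adjusted p = 0.0043; chromosome 7, 90476672 to 92449247, plus strand).

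The other called scaffolds of this family fell by less. Dlg3, which encodes SAP102, went from 120, 134 and 132 CPM to 107, 113 and 106 CPM (log2 fold change -0.24, adjusted p = 0.043). Magi2, a multi-PDZ scaffold also called S-SCAM, went from 182, 188 and 206 CPM to 158, 162 and 166 CPM (-0.25, adjusted p = 0.036). Its relative Magi1 went from 76.9, 77.8 and 89.7 CPM to 68.5, 61.7 and 68.7 CPM (-0.30, adjusted p = 0.034). The groups did not overlap for any of the 3, but leaving out any 1 of the 6 libraries ended the calls of Dlg3 (adjusted p 0.055 to 0.14) and Magi2 (0.052 to 0.16). The call of Magi1 ended without input replicate 2 (0.053), input replicate 3 (0.15) or IP replicate 2 (0.11). Dlg4, which encodes PSD-95, the most studied scaffold of the excitatory synapse, did not pass. Its values were 370.4, 379.8 and 369.5 CPM in input and 315, 378 and 333 CPM in IP. IP replicate 2 lay within the input range, and the log2 fold change was -0.13 with a 95% interval of -0.32 to 0.07 (adjusted p = 0.27).

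The 4 SAPAP adaptors bind the guanylate kinase domain of PSD-95 and also bind Shanks. Among them only Dlgap4 was called, beside 44.8% of all tested genes. Dlgap4 stood at 126, 138 and 135 CPM in input and at 172, 181 and 188 CPM in IP. Every IP library exceeded every input, and the gene rose by 0.44 (SE 0.09, adjusted p = 0.0015; chromosome 2, 156613705 to 156764363, plus strand). The log2 fold change was -0.17 for Dlgap1 (adjusted p = 0.15), the most abundant of the 4 at 953 ± 63.1 CPM in input and 847 ± 80.0 in IP. For Dlgap2 the log2 fold change was -0.20 (adjusted p = 0.11), and for Dlgap3 it was -0.05 (95% interval -0.30 to 0.21, adjusted p = 0.78). The values of Dlgap2 were 100.4, 96.4 and 97.4 CPM in input and 82.7, 93.9 and 79.0 CPM in IP, which did not overlap although the test was not passed.

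The Shank proteins are the large scaffolds that tie the PSD-95 layer to Homer and actin. In IP 2 of the 3 genes were called lower, beside 23.4% of all tested genes, with a median log2 fold change of -0.41 over the 3. Shank1 stood at 509.8, 635 and 658 CPM in input and at 374, 435 and 436 CPM in IP. Input replicate 1 was the lowest input and still above every IP library, and Shank1 fell by 0.53 (SE 0.11, adjusted p = 0.0018; chromosome 7, 44310253 to 44360572, plus strand). Shank3 stood at 59.8, 84.7 and 78.5 CPM in input and at 53.2, 63.4 and 50.6 CPM in IP. Here the groups overlapped, since IP replicate 2 exceeded input replicate 1, and the log2 fold change was -0.41 (SE 0.14, adjusted p = 0.030). The call of Shank3 ended without input replicate 2 (adjusted p = 0.15), input replicate 3 (0.12), IP replicate 1 (0.076) or IP replicate 3 (0.090), and with total-count scaling (0.085). Shank2 did not pass, with 124 ± 8.31 CPM in input, 110.2 ± 4.88 in IP and a log2 fold change of -0.17 (95% interval -0.37 to 0.03, adjusted p = 0.15).

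Homer proteins link Shanks to group I metabotropic glutamate receptors and to calcium release channels. Homer2 had the largest decrease of the 44 genes: 276, 263 and 299 CPM in input and 148, 159.3 and 159.2 CPM in IP. The groups lay far apart, and Homer2 fell by 0.85 (SE 0.09, adjusted p = 1.6e-05; chromosome 7, 81600481 to 81707527, minus strand). Homer1 did not pass: its inputs were 307, 319 and 395 CPM and its IPs 277, 286 and 324 CPM, with a log2 fold change of -0.20 (95% interval -0.44 to 0.03, adjusted p = 0.15). The symbol Homer1 sums the long forms and the short activity-induced form. Homer3 was barely detected, at 0.763, 0.477 and 0.409 CPM in input and 0.143, 1.73 and 0.293 CPM in IP, and the IP libraries spread on both sides of the inputs (log2 fold change 0.41, SE 0.89, adjusted p = 0.74). Since 25.4% of the exon length of Homer3 is shared with a neighbouring gene, Ddx49, its counts are uncertain.

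Of the 5 other postsynaptic scaffolds, 2 were called higher and 1 lower, beside 21.3% and 23.4% of all tested genes. Tanc1 and Tanc2 are related ankyrin repeat scaffolds that bind PSD-95, and their called fold changes had opposite signs. Tanc2 stood at 402, 485 and 495 CPM in input and at 325, 327 and 313 CPM in IP. The groups did not overlap, and Tanc2 fell by 0.52 (SE 0.09, adjusted p = 0.00089; chromosome 11, 105589986 to 105929304, plus strand). Tanc1 was far less abundant, with 16.1, 20.3 and 15.0 CPM in input and 27.5, 47.6 and 17.8 CPM in IP. IP replicate 2 stood well above the other IP libraries while IP replicate 3 fell inside the input range, and the log2 fold change was 0.85 (SE 0.28, adjusted p = 0.029; chromosome 2, 59612042 to 59846149, plus strand). Without IP replicate 2 it was 0.40 (adjusted p = 0.14), and the call also ended without input replicate 1 (0.095) or 3 (0.11) and with limma-voom (0.064).

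Anks1b, which encodes AIDA-1, a PSD-95-binding protein that shuttles to the nucleus, stood at 794, 752 and 799 CPM in input and at 983, 964 and 902 CPM in IP. The groups did not overlap and the log2 fold change was 0.28 (adjusted p = 0.011), a call that ended without input replicate 2 (0.073). Lrrc7, which encodes densin, had 239.8 ± 17.4 CPM in input and 224 ± 15.4 in IP (difference on the log2 scale -0.10, adjusted p = 0.41). Cnksr2, a scaffold of Ras signalling, had 521 ± 37.4 CPM in input and 519 ± 40.2 in IP, a log2 fold change of -0.01 with a 95% interval of -0.20 to 0.19 (adjusted p = 0.97).

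The PDZ proteins that bind the tails of AMPA receptor subunits, Grip1, Grip2 and Pick1, were expressed at low levels. None of these genes passed the test, beside 44.8% of all tested genes that did. Their inputs averaged 22.7, 8.24 and 12.2 CPM and their IPs 23.3, 10.3 and 15.1 CPM, respectively. Input and IP libraries overlapped for all 3, and the log2 fold changes were 0.04, 0.32 and 0.31, with adjusted p of 0.91, 0.33 and 0.21. For Grip2 the 95% interval ran from -0.24 to 0.88. For Pick1, 18.6% of the exon length is shared with Gm49486.

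Arf GTPases are small G proteins that control receptor trafficking and actin at the spine. Among their 6 regulators, 3 were called higher in IP and none lower, beside 21.3% and 23.4% of all tested genes. Their median log2 fold change was 0.27. Agap2, which encodes a GTPase activating protein also known as PIKE, stood at 227, 238 and 229 CPM in input and at 296, 346 and 301 CPM in IP. The groups were well separated, and Agap2 rose by 0.44 (SE 0.09, adjusted p = 0.0016; chromosome 10, 127075284 to 127093169, plus strand). Iqsec1 and Iqsec2 encode exchange factors that bind PSD-95. Iqsec1 went from 113, 115 and 131 CPM to 132, 146 and 168 CPM (log2 fold change 0.31, SE 0.11, adjusted p = 0.034). Iqsec2 went from 63.0, 75.7 and 78.3 CPM to 82.9, 104 and 89.1 CPM (0.35, SE 0.12, adjusted p = 0.032).

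Neither Iqsec1 nor Iqsec2 overlapped between groups, and both stayed above 0 without each library, from 0.23 to 0.40 for Iqsec1 and from 0.25 to 0.43 for Iqsec2. The call of Iqsec1 ended without input replicate 1 (adjusted p = 0.091), input replicate 2 (0.13) or IP replicate 3 (0.12). The call of Iqsec2 ended without input replicate 1 (0.11), input replicate 2 (0.073) or IP replicate 2 (0.11). Their relative Iqsec3, found at inhibitory synapses, did not pass, with 177 ± 17.4 CPM in input and 162 ± 12.8 in IP (difference on the log2 scale -0.12, adjusted p = 0.35). Psd and Psd3, exchange factors for Arf6, had log2 fold changes of 0.23 (adjusted p = 0.17) and 0.04 (95% interval -0.12 to 0.20, adjusted p = 0.67).

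Of the 5 regulators of spine actin and related signalling, 1 was called higher and 2 lower, beside 21.3% and 23.4% of all tested genes. Kalrn encodes kalirin, an exchange factor for Rac that enlarges spines, and stood at 434, 492 and 467 CPM in input and at 574, 711 and 709.9 CPM in IP. Every IP library was above every input, and Kalrn rose by 0.52 (SE 0.10, adjusted p = 0.0013; chromosome 16, 33969073 to 34573532, minus strand). Sipa1l1, which encodes the Rap regulator SPAR, went from 651, 673 and 713 CPM to 591, 558 and 561 CPM (log2 fold change -0.25, adjusted p = 0.020). Synpo, which encodes synaptopodin, the organiser of the spine apparatus, went from 126, 135 and 123 CPM to 98.2, 117 and 106 CPM (-0.26, adjusted p = 0.048).

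Both stayed below 0 without each library, from -0.27 to -0.20 for Sipa1l1 and from -0.32 to -0.19 for Synpo. The call of Sipa1l1 ended without input replicate 2 (adjusted p = 0.054), input replicate 3 (0.087) or IP replicate 2 (0.054), and that of Synpo without any 1 library other than IP replicate 2. Baiap2, which encodes the Rac effector IRSp53, had 106 ± 5.76 CPM in input and 129 ± 19.6 in IP. Its log2 fold change was 0.29 (adjusted p = 0.062), and it passed when the replicate number entered as a block (0.28, adjusted p = 0.030). Baiap2 stayed uncalled under 14 of the 19 alternatives described below, over which adjusted p ran from 0.0078 to 0.86. Ppp1r9b, which encodes spinophilin, had 199 ± 10.6 and 199.9 ± 17.4 CPM (0.00, 95% interval -0.20 to 0.21, adjusted p = 0.97).

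Nrgn encodes neurogranin, a small protein that holds calmodulin in spines of forebrain excitatory neurons, and it had the largest increase among genes whose groups did not overlap. It stood at 285, 292 and 268 CPM in input and at 409, 547 and 455 CPM in IP. The lowest IP library was far above the highest input, and Nrgn rose by 0.74 (SE 0.11, adjusted p = 0.00019; chromosome 9, 37544492 to 37552904, minus strand). Ddn encodes dendrin, and its values of 311, 351 and 291 CPM in input overlapped those of 328, 464 and 249 CPM in IP. The IP libraries of Ddn spread over a wider range than the inputs, and the log2 fold change was 0.13 with a 95% interval of -0.26 to 0.51 (adjusted p = 0.59).

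Gphn, which encodes gephyrin, had 62.6 ± 8.84 CPM in input and 70.4 ± 3.84 in IP (difference on the log2 scale 0.17, 95% interval -0.09 to 0.42, adjusted p = 0.27). Of the 6 adhesion genes only Nlgn2, which encodes the neuroligin of inhibitory synapses, was called, beside 44.8% of all tested genes. Nlgn2 stood at 138, 142 and 139 CPM in input and at 171, 173 and 193 CPM in IP. The inputs were close together and all below the IPs, and Nlgn2 rose by 0.36 (SE 0.09, adjusted p = 0.0053; chromosome 11, 69823122 to 69837784, minus strand).

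The remaining adhesion genes overlapped between the groups. Nlgn1, the neuroligin of excitatory synapses, had 109 ± 6.93 CPM in input and 114 ± 2.91 in IP (difference on the log2 scale 0.06, 95% interval -0.13 to 0.26, adjusted p = 0.61). The log2 fold change was 0.12 for Nlgn3 (adjusted p = 0.46), 0.11 for Nrxn2 (0.46) and 0.02 for Nrxn3 (0.89); the neurexins are mainly presynaptic partners of neuroligins. For Nlgn3, 41.2% of the exon length is shared with Gm21986. Lrrc4, which encodes the netrin-G ligand NGL-2, had a difference of -0.05 on the log2 scale, which did not pass (adjusted p = 0.68). Whether the fold change of Nlgn2 differed from that of Nlgn1 was not tested.

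**Figure D2:**
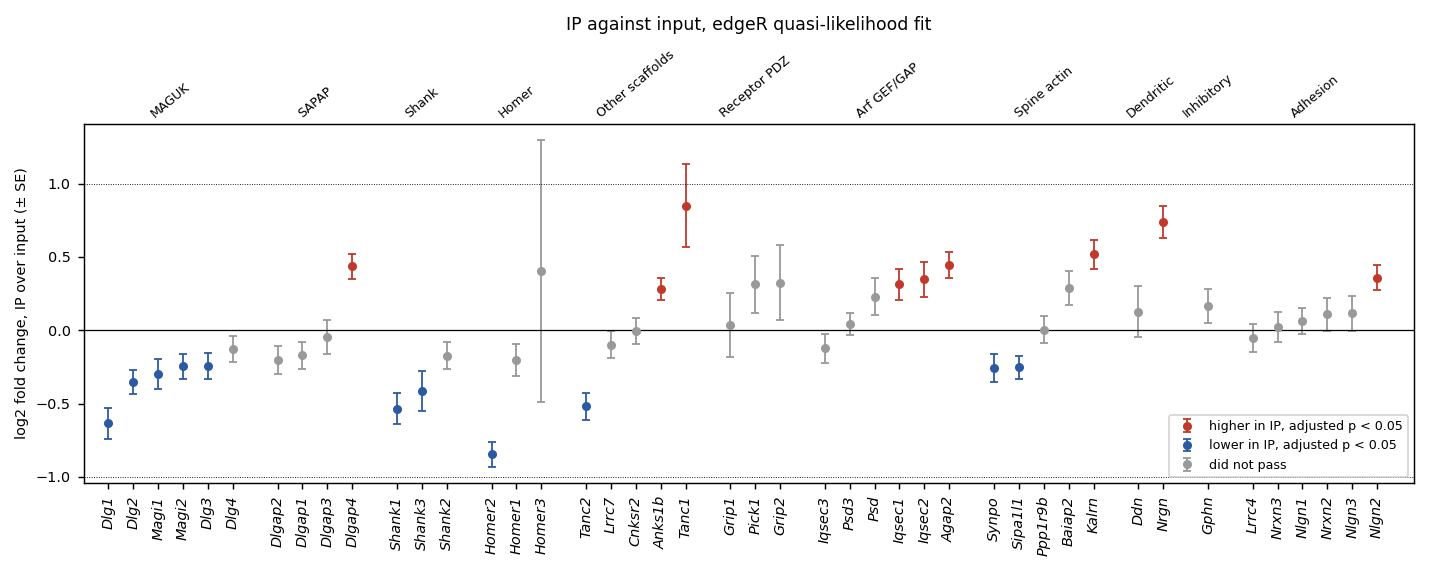
Log2 fold change of IP over input for each of the 44 genes, with its standard error as a bar, grouped by role; colours mark genes called higher, called lower or not passing. The guanylate kinase scaffolds and Shanks lie below 0, the Arf regulators mostly above 0, and no gene goes beyond 0.85 in either direction.

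The ratio of reads of 2 genes within a library does not depend on how libraries are scaled. Ratios were taken, in each role, between the gene with the highest and the gene with the lowest fold change, so they are a description without a test. A higher ratio in IP is fixed by this choice. Homer1 had 1.11, 1.21 and 1.32 reads for each read of Homer2 in the inputs, and 1.87, 1.80 and 2.03 in the IPs. Per kilobase of exon, Homer1 made up 55.9% ± 2.20 of the Homer family in input and 66.3% ± 1.75 in IP. By principal transcript its share was 41.7% in input and 52.8% in IP. Both measures divide the same reads by fixed lengths, so their shared direction adds nothing. The more abundant gene of the input depends on the length used.

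For the other families the direction is likewise fixed by the choice of the pair, and only the sizes are given. The log2 read ratio of Dlg4 to Dlg1 averaged 1.46 ± 0.122 in input and 1.96 ± 0.251 in IP, that of Dlgap4 to Dlgap2 0.44 ± 0.0969 and 1.08 ± 0.154, and that of Tanc1 to Tanc2 -4.75 ± 0.250 and -3.49 ± 0.681 (SD, n = 3). In the SAPAP family, per kilobase of exon, Dlgap4 made up 16.9% ± 0.784 in input and 23.6% ± 1.28 in IP, while Dlgap1 went from 57.1% ± 1.88 to 52.2% ± 1.41. Shank1 remained the main Shank, with 74.4% ± 0.632 of the family in input and 70.7% ± 1.64 in IP.

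**Figure D3:**
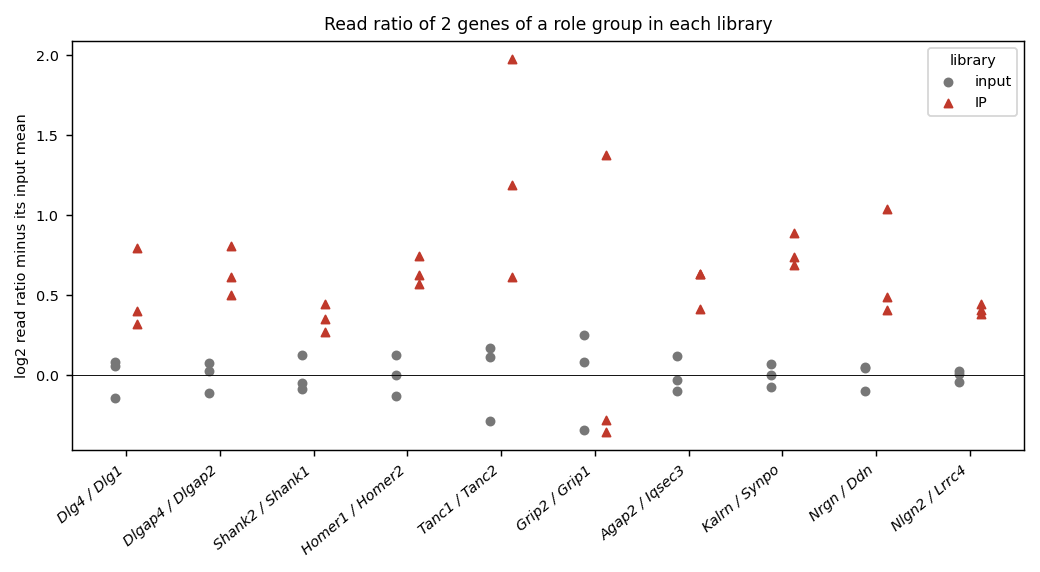
Log2 ratio of reads between the gene with the highest and the gene with the lowest fold change of each role. The mean over the inputs was subtracted for each pair, and each point is 1 library, with inputs and IPs in separate colours. Genes under a mean of 5 CPM in input were left out, and roles left with 1 gene have no pair. The pairs were chosen for their difference in fold change, so a higher ratio in IP is fixed by that choice. Before the subtraction, the mean log2 ratio of Homer1 to Homer2, for example, is 0.28 in input and 0.92 in IP.

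Genes whose mRNA is known from background knowledge to reach dendrites were listed apart: Shank1, Shank2, Shank3, Dlgap3, Dlg4, Ddn and Nrgn. Of these 7, 1 was called higher (Nrgn), 2 lower (Shank1 and Shank3) and 4 did not pass, with a median log2 fold change of -0.13. Of the other 37 genes, 8 were called higher and 9 lower, with a median of 0.04. Total-count scaling, and leaving out input replicate 2 or 3 or IP replicate 1 or 3, left 1 of the 2 decreases, and the offset for transcript length left neither. Over all tested genes, 21.3% were called higher and 23.4% lower. A difference between the lists was not tested.

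The 3 dendritic mRNAs listed outside the module gave differing values. Map2, the dendritic microtubule protein, stood at 1253, 1208 and 1266 CPM in input and at 562, 575 and 512 CPM in IP, and fell by 1.18 (SE 0.08, adjusted p = 7.9e-07). Camk2a, the abundant kinase of the postsynaptic density, had a difference of 0.14 (95% interval -0.14 to 0.41, adjusted p = 0.41), and Arc, an immediate early gene, one of -0.33 (adjusted p = 0.067). Arc was called lower at -0.33 with the replicate block (adjusted p = 0.0093), at -0.36 with DESeq2 (0.030), at -0.38 with at least 1 CPM in 3 libraries (0.036), at -0.43 without IP replicate 2 (0.032), and under each of the 3 offsets described below (-0.39 to -0.55).

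Transcripts of the module are long, and fold changes across all genes depended on length. The median principal transcript was 5133 nucleotides over the 44 genes, from 1453 for Nrgn to 11855 for Tanc2, against 3027 over all tested genes, and 37 of the 44 were longer than that. When the 14972 tested genes with a known length were ordered by length and divided into 10 groups, the median log2 fold change went from 0.42 in the shortest group to -0.29 in the longest. The longest group, from 6515 nucleotides up, held 16 of the 44 genes, and their median was -0.11. Across genes, which are not independent replicates and share the same 6 libraries, the Spearman rank correlation of fold change with transcript length was -0.25 over the 14972 genes and -0.16 over the 44.

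**Figure D4:**
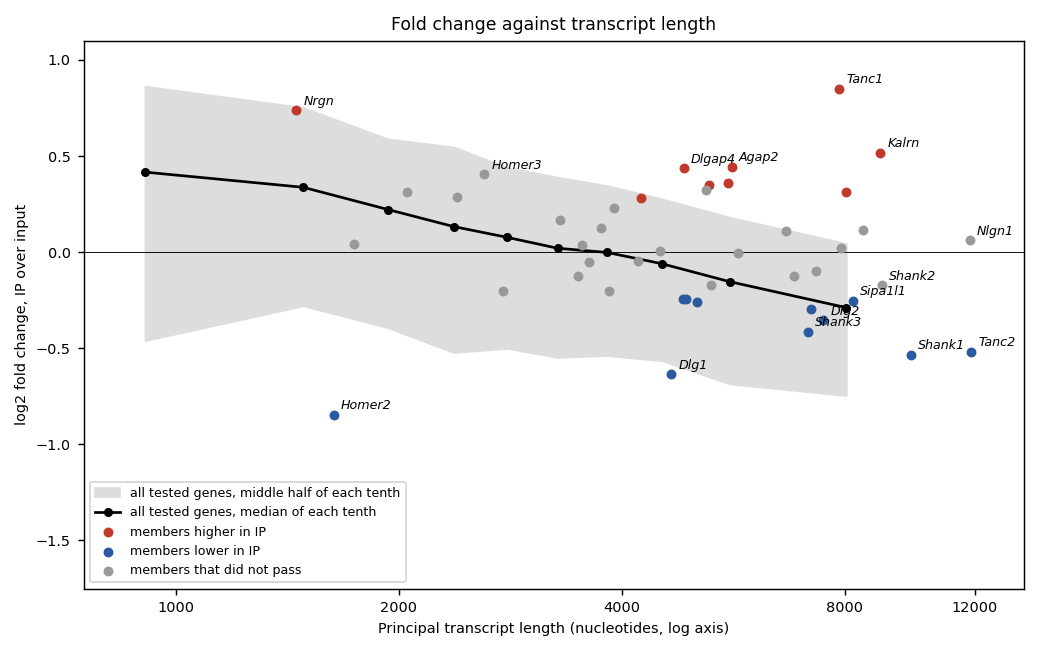
Log2 fold change of IP over input against the length of the principal transcript (log axis), with the 44 genes as points coloured by call and the line and band giving the median and the middle 50% of all tested genes in 10 groups of length. The line goes from 0.42 to -0.29, and Homer2 and Dlg1 lie below the band while Kalrn, Agap2, Dlgap4 and Tanc1 are among those above it.

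A fit that removes this trend from each library changed the balance of calls. With an offset for principal transcript length, 13 of the 44 genes (29.5%) were called higher and 4 (9.09%) lower, beside 20.6% and 20.3% of all genes in that fit. With length and GC content together, 13 were higher and 9 (20.5%) lower, beside 21.4% and 20.2%. An offset for the union of annotated exons, chosen after the data were seen, gave 15 higher (34.1%) and 3 lower (6.82%), beside 20.5% and 20.2%. The files do not give which transcripts were present, so the choice of length measure could not be settled. The higher calls thus numbered 9 without an offset and 13 to 15 with one, and the lower calls 11 and 3 to 9.

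Single genes differed in how far the offset moved them. Dlg1 and Homer2 stayed lower in all 3 fits: Dlg1 at -0.54, -0.50 and -0.40 and Homer2 at -1.16, -1.17 and -0.57 for transcript length, length with GC, and exon union. Kalrn stayed higher, at 0.83, 0.77 and 1.01, as did Agap2 (0.61, 0.43 and 0.48), Dlgap4 (0.55, 0.41 and 0.59) and Nlgn2 (0.52, 0.37 and 0.39). The calls of Dlg2 and Tanc2 ended under each offset: Dlg2 was at -0.10, -0.05 and 0.01 and Tanc2 at -0.09, -0.07 and -0.15. Magi1 was not called under any of the 3 (-0.05, -0.05 and -0.07), nor was Sipa1l1 (0.04, 0.00 and 0.03).

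Shank1 was -0.18 with transcript length (adjusted p = 0.13) and passed with the other offsets at -0.32 and -0.31. Nrgn, the shortest transcript of the module, was at 0.39 and 0.32 and missed the threshold with the exon union (0.30, adjusted p = 0.061). Dlg3 was not called under any of the 3 (-0.13, -0.17 and -0.21). Synpo (-0.13, -0.26 and -0.07), Magi2 (-0.14, -0.22 and 0.00) and Shank3 (-0.17, -0.33 and -0.23) kept their calls with length and GC content only. Psd3 was called in opposite directions: lower with transcript length (-0.24, adjusted p = 0.014) and with length and GC content (-0.18, 0.040), and higher with the exon union (0.43, 0.00067). Conversely, adhesion genes that did not pass without an offset were called higher with each of the 3: Nlgn1 at 0.49, 0.60 and 0.36, Nlgn3 at 0.42, 0.42 and 0.31, and Nrxn3 at 0.30, 0.32 and 0.30. Nlgn1 has one of the longest transcripts of the module, at 11807 nucleotides. Further genes gained a call under some of the offsets. Dlg4 (-0.23, adjusted p = 0.033) and Dlgap2 (-0.27, 0.041) were lower with length and GC content, and Homer1 with transcript length (-0.30, 0.043). Cnksr2 was higher with length and GC content (0.22, 0.035), and Dlgap1 (0.22, 0.036) and Psd (0.36, 0.037) with the exon union. Nrxn2 was higher with transcript length (0.33, 0.029) and the exon union (0.41, 0.0099).

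**Figure D5:**
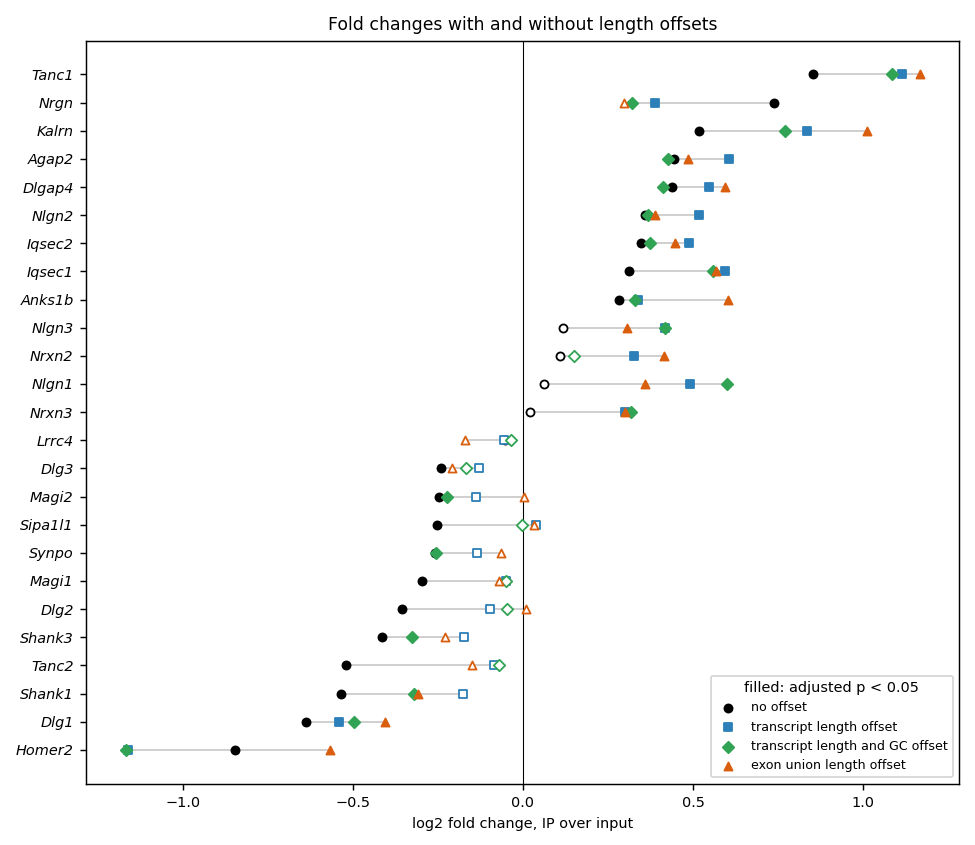
Log2 fold change of the called genes and of all adhesion genes, without an offset and with each of the 3 offsets (principal transcript length, length with GC content, exon union length). Other genes that did not pass without an offset are not drawn. Kalrn and Tanc1 are furthest above 0 and Homer2 furthest below 0 with an offset, whereas Dlg2, Tanc2, Magi1 and Sipa1l1 come close to 0.

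Of the 20 called genes, 6 kept their call and direction under all 19 alternatives tried: Agap2, Dlgap4, Kalrn and Nlgn2 higher, and Dlg1 and Homer2 lower. With Dlg2, Tanc2, Shank1 and Nrgn, 10 kept them under all 13 alternatives that use no length offset, the leaving out of each library included.

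A list of 101 other genes covered synaptic scaffolding, spine actin and synaptic adhesion, with some presynaptic scaffolds among them. It had 100 tested genes, of which 27 were called higher and 20 lower, beside 21.3% and 23.4% of all tested genes. Their median log2 fold change was 0.11, against -0.02 over all tested genes. Among called genes that averaged at least 5 CPM in either group and whose groups did not overlap, the largest decreases were those of Erbb2ip, a PDZ scaffold now called Erbin, and of Pclo, the very large presynaptic scaffold piccolo. Erbb2ip went from 107 ± 5.72 to 35.6 ± 3.80 CPM (log2 fold change -1.59, adjusted p = 8.3e-07). Pclo, with a principal transcript of 20084 nucleotides, went from 759.7 ± 43.7 to 261 ± 19.3 CPM (-1.54, adjusted p = 1.9e-07). With the offset for transcript length Pclo was at -0.87, and with length and GC content at -0.84, still called lower. The largest increases under the same limits were those of Shisa6, an auxiliary protein of AMPA receptors, and of Tiam1, an exchange factor for Rac. Tiam1 went from 107 ± 5.32 to 209 ± 21.0 CPM (0.96, adjusted p = 1.6e-05). Shisa6 went from 54.7 ± 12.5 to 109 ± 46.0 CPM (0.99, adjusted p = 0.0075), with IP replicate 2 highest; without that library the fold change was 0.61 (adjusted p = 0.020), and with length and GC content it was 0.60 and not called (0.079). The most abundant per kilobase, Camk2a, had 2849 ± 186 CPM in input and 3132 ± 677 in IP.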

How the data were processed

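The authors deposited raw read counts per gene symbol for 6 libraries, not normalized. Alignment used STAR 2.0.0e and mm10, and HTSeq is named too, per the submitters' processing notes. For HTSeq, the version, the strand setting and the annotation were not given in the sources used here, so reads of overlapping or antisense genes cannot be told apart. Library sizes exclude rows without a gene name: reads outside genes (17.2% of listed reads in input, 8.78% in IP), reads matching several genes (8.99% and 1.82%) and reads aligned to several places (22.4% and 34.4%).

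Groups came from the titles. Counts were tested with edgeR 4.0.16 (R 4.3.3): quasi-likelihood test, TMM scaling, filterByExpr, a group term, Benjamini-Hochberg adjustment over 16506 genes. The code was tested on simulated data. Lengths, GC content and coordinates are from GENCODE M21 (GRCm38, which is mm10), and 90.7% of tested genes matched. Offsets were per-library loess fits (span 0.4) of log2 CPM deviations on log2 length, with or without GC content. Exon overlap was counted on both strands.

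The members and lists were chosen with earlier results of these data known. All 44 members may be named. Of the list of 101 other genes, the 2 called genes with the largest change in each direction were named, provided that they reached a mean of at least 5 CPM in either group and that no input lay within the IP range, and the most abundant per kb. The labels do not say that replicates are separate animals, so p-values speak only of the spread among these libraries, which may be technical. Chi-square per degree of freedom between libraries of a group was 22.0 to 65.2, so none were copies. Input and IP of a replicate number shared a sequencing lane, per the labels, so the number pairs the samples by lane; deviations of same-numbered libraries correlated at 0.087, 0.061 and 0.043. Each group had a library index of its own, so the effects of index and of group cannot be told apart. Floors cover counting error only, because reads from PCR are not independent molecules; 95% intervals of fold changes use the test's t distribution.

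Alternatives were RLE size factors, total counts, DESeq2 1.42.0, limma-voom (limma 3.58.1), a stricter filter (at least 1 CPM in 3 libraries), no filter, the replicate block, the offsets with and without the block, and leaving out each library.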

Additional observations from a re-analysis of the deposited data

How the results depend on the processing

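RLE size factors and DESeq2 left the call of each of the 44 genes as it was. The replicate block, which pairs libraries by lane, gave 10 genes higher and 11 lower, beside 21.9% and 24.0% of all genes in that fit. It changed no call of the 44 but that of Baiap2. The lower calls (11) numbered 5 with total counts (11.4%) and 7 with no filter (15.9%), beside 20.8% and 19.8% of all genes in those fits. They numbered 4 with the transcript length offset (5 with the block), beside 20.3% (21.1%) of all genes. With the exon union offset they numbered 3, with or without the block, beside 20.2% (21.0% with the block). The higher calls (9) numbered 15 with the exon union offset and 17 with its block, beside 20.5% and 21.3% of all genes. Leaving out each library gave 6 to 10 higher and 5 to 8 lower. In those fits 15.8% to 19.9% of all genes were called higher and 18.3% to 23.8% lower. The median log2 fold change of the 44 genes (0.01) was 0.11 with total counts, which moved the median of all genes by 0.09, 0.12 with the transcript length offset (0.10 with the block) and 0.18 with the exon union offset (0.15 with the block). Of the 2 dendritic genes called lower, 0 were left with the transcript length offset. With total counts, that offset with the block, or the exon union offset with or without the block, 1 was left, and leaving out each library gave 1 to 2. The 27 higher and 20 lower calls among the other synaptic genes stayed within 22 to 38 and 17 to 21.

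Under the offsets, with and without the replicate block, some fold changes crossed 0 for genes called in at least 1 of the compared fits. Cnksr2 was 0.22 in both fits with length and GC. Psd3 was -0.24 in both with transcript length and -0.18 in both with length and GC, but 0.43 in both with the exon union. Sipa1l1 was 0.037 and 0.036 with transcript length and 0.032 and 0.031 with the exon union. Also with the exon union, Dlgap1 was 0.22 in both, Dlg2 0.0081 and 0.0062, and Magi2 0.0018 and 0.0019. The cause was not tested. Of 835 values of the 44 genes under the 19 alternatives, 692 kept the call. Depth limits Homer3, at under 2 CPM, where only large changes could be seen.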
